A study of Mus musculus with 9 samples.

Results

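Autophagy and mitophagy genes of red cells were described here through 10 named genes, Bnip3l, Ulk1, Ulk2, Map1lc3a, Map1lc3b, Gabarap, Gabarapl1, Gabarapl2, Sqstm1 and Foxo3. Every probe set that the platform annotation gave to 1 of them alone was taken, whatever its value. This gave 22 probe sets of 9 genes, out of 45037 probe sets tested and 18193 named genes. Bnip3l had no probe set of its own: its 3 probe sets were annotated to Bnip3l and to Bnip3l-ps together, and 1 further probe set was shared by Foxo3 and Gm38485. These 4 shared probe sets are given as such and were kept out of the counts.

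A red cell destroys its own organelles on the way to maturity, and its mitochondria are taken up by autophagosomes, the double-membraned vesicles of autophagy. ULK kinases start the formation of these vesicles, and small ubiquitin-like proteins of the Atg8 family (the LC3 and GABARAP proteins) are attached to the growing membrane. The outer mitochondrial membrane protein encoded by Bnip3l, also called NIX, binds Atg8 proteins and is required for clearance of mitochondria in mouse red cells. FOXO3 is a transcription factor of late red cell maturation that is known to act on autophagy genes.

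The RNA came from the peripheral blood of E12.5 mouse embryos, on a mixed C57BL6/129SvEv background, and was measured on Affymetrix expression arrays. Embryos from crosses of Cbfb+/ΔC95 parents were homozygous (CbfbΔC95/ΔC95), heterozygous (Cbfb+/ΔC95) or wild type (Cbfb+/+), with 3 arrays for each genotype and 9 in all. Cbfb encodes CBFβ, the partner of the DNA-binding RUNX proteins, and the study's title is about the C-terminal end of the fusion protein CBFβ-SMMHC. The labels name the ΔC95 allele without describing it further. Nothing in them restricts it to blood cells, and no other allele or treatment is named for any group. Blood from 8 to 10 embryos of a genotype went into a pool. Since no label says that the replicate arrays hold RNA of different pools, the p-values speak only of the spread among arrays, and that spread may be technical.

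Erythroid markers were among the brightest signals: of 14 measured, the lowest, Epb42, averaged 8.78 on the log2 scale and the highest, Hbb-bh1, 14.39. Array medians lay between 4.26 and 4.29. Markers of several other cell types moved with genotype. Beside the counts below, 25.6% of all genes were called for homozygous against wild-type blood, 10.7% higher and 14.9% lower (limma adjusted p under 0.05). For heterozygous against wild-type blood 11.8% were called, 4.79% higher and 7.04% lower. The summed linear signal of 16 macrophage markers was 441 to 444 in homozygous, 1897 to 1935 in heterozygous and 2591 to 2651 in wild-type arrays, with 15 of 16 called lower in the comparison of homozygous with wild-type arrays and Itgam the dimmest. The same sum over 13 megakaryocyte markers was 597 to 640 in homozygous, 1894 to 1953 in heterozygous and 1549 to 1574 in wild-type arrays, with 11 of 13 called lower in homozygous blood. Liver and visceral endoderm markers summed to 1034 to 1128 in homozygous, 491 to 524 in heterozygous and 617 to 624 in wild-type arrays, with 7 of 8 called higher in homozygous blood. Mesenchyme markers summed to 370 to 392 in homozygous, 624 to 649 in heterozygous and 500.2 to 508 in wild-type arrays, with 6 of 10 lower in homozygous and 3 higher in heterozygous blood. Neutrophil markers summed to 313 to 323 in homozygous, 366 to 377 in heterozygous and 528 to 573 in wild-type arrays, with 3 of 10 lower in homozygous and 4 lower in heterozygous blood. Of 10 neural markers, 1 was higher in homozygous and 3 in heterozygous blood, and of 9 endothelial markers 0 were called in either by limma (1 higher and 1 lower in homozygous and 0 in heterozygous blood at an unadjusted p under 0.05). Over the 14 erythroid markers the summed signal was 93343 to 93785 in homozygous, 91919 to 93229 in heterozygous and 94465 to 94928 in wild-type arrays. The brightest of them, Hbb-bh1 at 14.39, lay near the array maxima of 14.49 to 14.56, so this sum cannot show a steady share of red cells. Of the 14 erythroid markers, limma called 5 lower and 2 higher in homozygous and 4 lower and 0 higher in heterozygous against wild-type blood (5 lower and 0 higher at an unadjusted p under 0.05 in heterozygous blood). Not called were 7 of the 14 in homozygous and 10 in heterozygous blood, with median differences of -0.05 in homozygous and -0.07 in heterozygous blood. Poly-A spike-ins, bacterial transcripts added before labelling, also differed, averaging 11.96 in homozygous, 11.26 in heterozygous and 10.38 in wild-type arrays. Hybridization spike-ins averaged 10.60 in homozygous, 10.32 in heterozygous and 10.32 in wild-type arrays. The part of the spike-ins and of these cell types in the differences below was not tested. In pooled blood, fewer cells of a type and less RNA per cell cannot be told apart. Cbfb itself, by a probe set that may or may not cover what the allele alters, averaged 5.10 ± 0.16 in homozygous, 5.77 ± 0.04 in heterozygous and 6.01 ± 0.03 in wild-type arrays (SD, n = 3 each).

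In homozygous blood, 3 of the 5 Atg8 family genes, the kinase gene Ulk2 and Foxo3 were lower than in wild-type blood, each by 1.22- to 1.35-fold. For Map1lc3b this was 1 of its 4 probe sets, and the mean of the 4 differed by -0.01 (limma adjusted p = 0.874). Sqstm1, Map1lc3a, Gabarap and the representing probe set of Ulk1 did not pass the test. Of the 22 probe sets, 9 were called at a limma adjusted p under 0.05, 1 higher and 8 lower, where 20.0% of all probe sets were called (8.34% higher and 11.7% lower). Under the 4 other scalings tried, 7 or 8 were lower and 0 or 1 higher. With each gene represented by its brightest probe set, 5 of the 9 genes were lower and 0 higher, against 25.6% of all genes called, 10.7% higher and 14.9% lower. At an unadjusted p under 0.05, 0 of the 9 genes were higher and 6 lower. The share of all genes or probe sets at that unadjusted limit is not given for any comparison, so counts at that limit have no baseline. The median difference over the 22 probe sets was -0.11 on the log2 scale, beside 0.04 for all probe sets. All homozygous arrays lay below all wild-type arrays for 10 of the 22 and above them for 4, where arrays did not overlap, one way or the other, for 32.4% of all probe sets.

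In heterozygous blood Foxo3 and Gabarapl2 were lower than in wild-type blood. Of the 22 probe sets, 3 were lower and 0 higher by limma (7 lower and 0 higher at an unadjusted p under 0.05), where 8.56% of all probe sets were called, 3.41% higher and 5.15% lower. The median was -0.10, beside 0.01 for all probe sets. All heterozygous arrays lay below all wild-type arrays for 8 of the 22 and above them for 1, where 24.1% of all probe sets did not overlap. Between homozygous and heterozygous blood 2 of 22 were lower and 0 higher by limma (7 lower and 3 higher at an unadjusted p under 0.05), where 12.1% of all were called, 4.17% higher and 7.95% lower. All homozygous arrays lay below all heterozygous arrays for 7 and above them for 5, where 25.7% of all probe sets did not overlap. In this comparison the direction turned with the scaling. After scaling to 8 reference genes, which moved the median of all probe sets by 0.16, 9 of the 22 were called higher and 0 lower. These 8 genes (Hprt, Tbp, Ywhaz, Gusb, Sdha, Polr2a, Rplp0 and Actb) were not steady across genotypes themselves. In the main fit, limma called 1 of them higher and 3 lower for homozygous minus heterozygous. For heterozygous minus wild type 2 were higher and 0 lower, and for homozygous minus wild type 2 higher and 2 lower. Of all 45037 probe sets, 19494 were called higher and 2356 lower under that scaling, so the turn was not particular to these genes. The comparisons of homozygous and of heterozygous blood with wild type share the wild-type arrays.

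**Figure D1:**
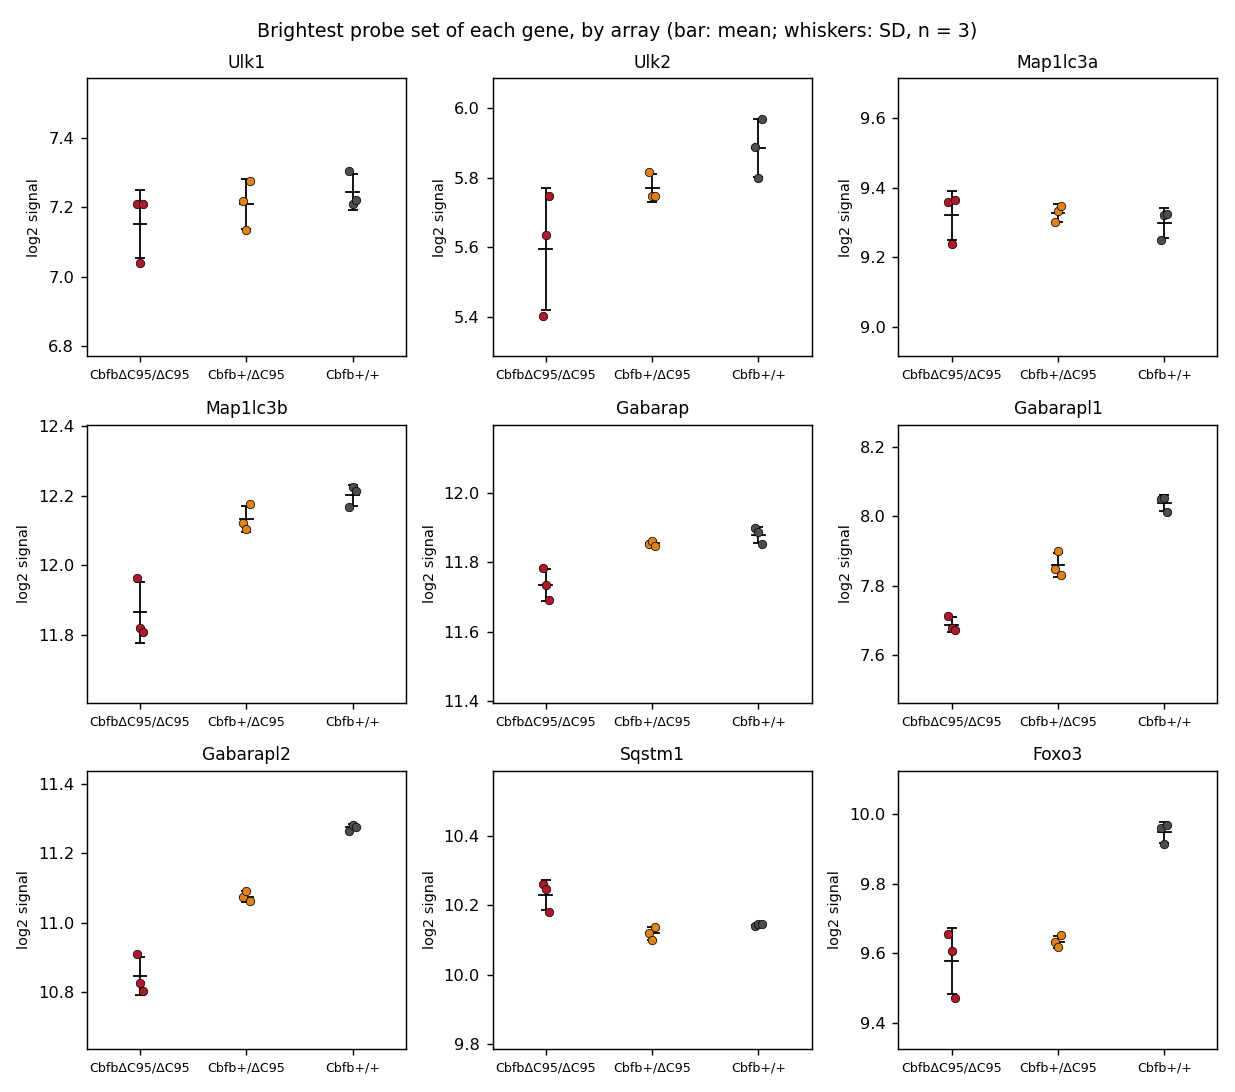
Deposited log2 signal of the brightest probe set of each of the 9 genes, 1 point per array, for homozygous, heterozygous and wild-type blood (bars, mean; whiskers, SD, n = 3); each panel has its own axis, of equal span. The 3 genotypes do not overlap for Gabarapl1 and Gabarapl2, and for Foxo3 both mutant genotypes lie below every wild-type array.

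Among these genes the promoters of 8 were found in RefSeq's table for the build GRCm38.p6, as 300 bases from 250 before to 50 after the annotated start. Bnip3l and Map1lc3a were not matched. The 4 printed here, 5′ to 3′ on the strand of the gene, belong to the genes with the largest F statistics over the genotypes, Foxo3, Gabarapl1 and Gabarapl2, and to Sqstm1, whose promoter held the single motif match. Foxo3 lies at chr10:42276646-42276945 (minus strand), Gabarapl1 at chr6:129532942-129533241 (plus), Gabarapl2 at chr8:111940453-111940752 (plus) and Sqstm1 at chr11:50210771-50211070 (minus); the capitals mark TGTGGT.
Foxo3: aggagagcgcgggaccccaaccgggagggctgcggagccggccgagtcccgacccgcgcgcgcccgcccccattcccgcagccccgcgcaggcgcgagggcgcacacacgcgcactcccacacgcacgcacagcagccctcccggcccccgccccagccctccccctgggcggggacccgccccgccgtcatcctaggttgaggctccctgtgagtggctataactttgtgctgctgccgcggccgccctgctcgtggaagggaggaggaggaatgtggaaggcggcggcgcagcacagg
Gabarapl1: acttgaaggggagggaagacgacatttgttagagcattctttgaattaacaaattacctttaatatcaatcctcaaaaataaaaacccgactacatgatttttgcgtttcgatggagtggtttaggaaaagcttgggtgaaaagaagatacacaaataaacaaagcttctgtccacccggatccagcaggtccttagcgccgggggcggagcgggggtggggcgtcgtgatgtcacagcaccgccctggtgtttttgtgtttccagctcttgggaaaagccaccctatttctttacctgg
Gabarapl2: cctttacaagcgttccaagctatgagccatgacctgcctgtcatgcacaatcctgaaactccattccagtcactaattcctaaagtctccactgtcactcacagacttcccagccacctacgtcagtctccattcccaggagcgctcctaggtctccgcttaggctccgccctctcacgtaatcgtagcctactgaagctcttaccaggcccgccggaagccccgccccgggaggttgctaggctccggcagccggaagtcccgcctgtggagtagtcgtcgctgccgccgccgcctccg
Sqstm1: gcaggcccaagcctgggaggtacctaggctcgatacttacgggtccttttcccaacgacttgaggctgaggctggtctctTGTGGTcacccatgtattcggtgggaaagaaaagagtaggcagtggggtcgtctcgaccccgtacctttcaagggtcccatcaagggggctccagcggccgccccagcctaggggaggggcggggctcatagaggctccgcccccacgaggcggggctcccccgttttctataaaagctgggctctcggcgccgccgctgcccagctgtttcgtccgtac
Both strands of the 8 promoters were searched for the RUNX motif TGTGGT or TGCGGT, the FOXO motif TGTTTAC, the GATA motif AGATAA or TGATAA, and the E-box CACGTG. The search gave 1 match in all, TGTGGT in Sqstm1, whose first base stands at -170 from the start. Of 32851 RefSeq promoters of the same length, 22.4% held the RUNX motif, 18.6% the GATA motif, 7.15% the E-box and 3.65% the FOXO motif. In the other 7 promoters these letters are not in the window.

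The transcription factor gene Foxo3 was lower in both mutant genotypes. Its brightest probe set, 1434831_a_at, read 9.66, 9.61 and 9.47 in homozygous, 9.63, 9.62 and 9.65 in heterozygous and 9.96, 9.91 and 9.97 in wild-type arrays. Every mutant array lay below every wild-type array, while the heterozygous arrays lay within the homozygous range. The homozygous difference from wild type was -0.37 ± 0.06 (SE; 1.29-fold lower, limma adjusted p = 0.000769) and the heterozygous one -0.31 ± 0.06 (1.24-fold lower, limma adjusted p = 0.00649). Homozygous minus heterozygous was -0.06, with a 95% interval of -0.19 to 0.08 and a limma adjusted p of 0.631.

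The second Foxo3 probe set, 1434832_at, read 8.77, 8.78 and 8.77 in homozygous, 8.87, 8.98 and 8.86 in heterozygous and 9.11, 9.11 and 9.13 in wild-type arrays. Here the 3 genotypes did not overlap. Its limma adjusted p was 0.000609 for homozygous against wild type (-0.34) and 0.0312 for heterozygous against wild type (-0.21). This heterozygous call was lost when heterozygous array 1 or 3, or any wild-type array, was left out (limma adjusted p up to 0.116), after quantile normalization (0.0949) and with the replicate number as a block (0.0584). The other set, 1450236_at, was not called, at -0.07 in homozygous and -0.10 in heterozygous blood. The probe set shared by Foxo3 and Gm38485, 1444226_at, read 6.01, 6.08 and 5.86 in homozygous, 5.95, 5.97 and 6.02 in heterozygous and 6.41, 6.37 and 6.38 in wild-type arrays. It too had both mutant genotypes below wild type, at -0.40 in homozygous (limma adjusted p = 0.000669) and -0.41 in heterozygous blood (0.00196), and homozygous minus heterozygous was 0.01.

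Foxo3 was the gene for which the heterozygous mean stood nearest the homozygous one among those called, but a departure from the midpoint of the other genotypes was not called. For 1434831_a_at the heterozygous mean lay -0.13 from that midpoint (limma adjusted p = 0.249). For all 22 probe sets, 0 were called for this departure by limma (4 lower and 0 higher at an unadjusted p under 0.05), where 3.72% of all probe sets were called.

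**Figure D2:**
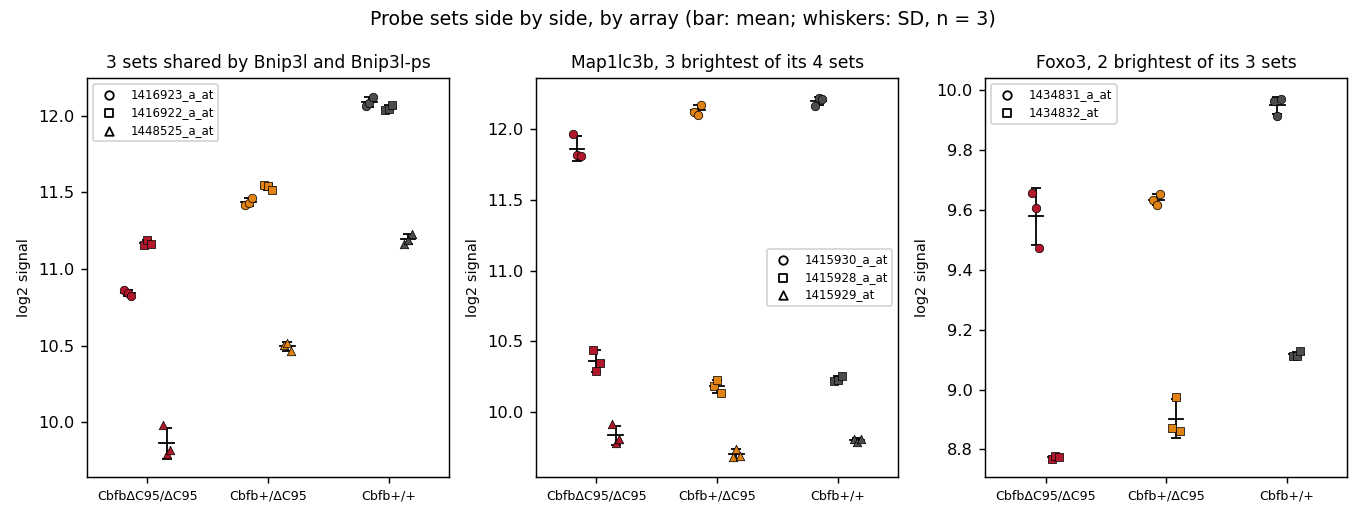
Deposited log2 signal by array of the 3 probe sets shared by Bnip3l and Bnip3l-ps, the 3 brightest of Map1lc3b and the 2 brightest of Foxo3, for homozygous, heterozygous and wild-type blood (bars, mean; whiskers, SD, n = 3; symbols mark probe sets). The shared Bnip3l sets fall in steps by genotype, the Map1lc3b sets do not move together, and the Foxo3 sets are lower in both mutant genotypes.

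The probe sets shared by Bnip3l and Bnip3l-ps showed wider differences between genotypes than any of the 22 probe sets of single genes. Since an array cannot say which of the 2 transcripts gave the signal, the values are those of the pair. The set 1416923_a_at read 10.86, 10.84 and 10.82 in homozygous, 11.41, 11.43 and 11.46 in heterozygous and 12.06, 12.08 and 12.12 in wild-type arrays. No genotype overlapped another, and the heterozygous arrays lay about midway. Homozygous blood was lower than wild type by 2.37-fold (-1.25 ± 0.05, limma adjusted p = 1.96e-08) and heterozygous blood by 1.57-fold (-0.65 ± 0.05, limma adjusted p = 2.56e-05).

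The other 2 shared sets went the same way. The set 1448525_a_at read 9.98, 9.79 and 9.82 in homozygous, 10.51, 10.52 and 10.46 in heterozygous and 11.16, 11.19 and 11.23 in wild-type arrays, a difference of -1.33 for homozygous and -0.70 for heterozygous blood. The set 1416922_a_at read 11.16, 11.19 and 11.16 in homozygous, 11.55, 11.54 and 11.51 in heterozygous and 12.04, 12.04 and 12.07 in wild-type arrays, differences of -0.88 for homozygous and -0.52 for heterozygous blood from wild type. All 3 sets were called in every comparison of genotypes, and these calls held in each alternative that included the sets, reference genes among them. The alternatives without suffixed probe sets, or with a mean per gene, left these sets out.

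The related receptor gene Bnip3, whose product also sits in the outer mitochondrial membrane, gave 0.05 (limma adjusted p = 0.572) in homozygous and -0.07 in heterozygous blood against wild type. Pink1, the kinase that marks damaged mitochondria, gave 0.07 in homozygous and -0.03 in heterozygous blood. Neither passed the test.

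Of the Atg8 family, Gabarapl2 was the member called in all 3 comparisons. Its product, GATE-16, belongs to the GABARAP branch, which is known for late steps of autophagosome formation. Probe set 1423187_at read 10.91, 10.83 and 10.80 in homozygous, 11.07, 11.09 and 11.06 in heterozygous and 11.27, 11.28 and 11.28 in wild-type arrays, with means of 10.85 ± 0.06 in homozygous, 11.08 ± 0.01 in heterozygous and 11.27 ± 0.01 in wild-type arrays (SD, n = 3 each). The genotypes stood in 3 separate steps. Homozygous blood was lower than wild type by 1.35-fold (-0.43 ± 0.05, limma adjusted p = 9.55e-05).

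The steps on either side of the heterozygous mean were nearer the threshold: heterozygous minus wild type was -0.20 ± 0.05 (limma adjusted p = 0.0423) and homozygous minus heterozygous -0.23 ± 0.05 (0.016). The call against wild type was lost when any 1 of the heterozygous or wild-type arrays was left out (adjusted p up to 0.126) and after quantile normalization (0.0557), and the call between homozygous and heterozygous blood without heterozygous array 1 or 2 (0.0539 and 0.0608). After scaling to reference genes, homozygous minus heterozygous was -0.07 and not called. The other Gabarapl2 probe set, 1441376_at, gave -0.10 for homozygous minus wild type and was not called.

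Gabarapl1, whose product is close to GABARAP in sequence and is also called GEC1, was lower in homozygous blood by both of its probe sets. The set 1416419_s_at read 7.71, 7.68 and 7.67 in homozygous, 7.85, 7.90 and 7.83 in heterozygous and 8.05, 8.05 and 8.01 in wild-type arrays. Again no genotype overlapped another, and homozygous minus wild type was -0.35 ± 0.05 (1.28-fold lower, limma adjusted p = 0.000382). The heterozygous difference of -0.18 missed the threshold (limma adjusted p = 0.0611), as did homozygous minus heterozygous at -0.17 (0.0562). Both passed it when the 40% dimmest probe sets were left out (0.0299 and 0.0286) and after cyclic loess (0.043 and 0.0372). After scaling to reference genes, homozygous minus heterozygous was -0.013 (limma adjusted p = 0.852) and heterozygous minus wild type -0.31 (0.003).

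The second set, 1416418_at, read 6.87, 6.91 and 6.84 in homozygous, 7.19, 7.14 and 6.91 in heterozygous and 7.29, 7.44 and 7.29 in wild-type arrays. Heterozygous array 3 lay at the level of the homozygous arrays, and all wild-type arrays stood above the rest. Homozygous minus wild type was -0.47 ± 0.08 (1.39-fold lower, limma adjusted p = 0.000753), and heterozygous minus wild type was -0.26 (0.063). The p-values of the heterozygous differences that missed the threshold do not show that heterozygous and wild-type blood were alike.

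Map1lc3b, which encodes LC3B, gave different answers from its 4 probe sets. The brightest, 1415930_a_at, read 11.96, 11.82 and 11.81 in homozygous, 12.12, 12.10 and 12.18 in heterozygous and 12.17, 12.22 and 12.21 in wild-type arrays. All homozygous arrays lay below the rest, while heterozygous and wild-type arrays overlapped. The differences were -0.34 ± 0.06 for homozygous minus wild type (1.26-fold lower, limma adjusted p = 0.00146), -0.27 for homozygous minus heterozygous (0.0121) and -0.07 for heterozygous minus wild type (0.641).

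The next set, 1415928_a_at, read 10.44, 10.29 and 10.35 in homozygous, 10.19, 10.23 and 10.14 in heterozygous and 10.22, 10.23 and 10.26 in wild-type arrays. There the homozygous arrays lay above the rest, by 0.13 over wild type, which was not called (limma adjusted p = 0.173). The sets 1415929_at and 1428024_at gave 0.03 and 0.14 for homozygous minus wild type and were not called either. For homozygous minus heterozygous, 1415928_a_at, 1415929_at and 1428024_at gave 0.18, 0.13 and 0.08, against -0.27 for the brightest set. In each of them all homozygous arrays lay above all heterozygous ones, and none was called. Among the alternatives, 1415928_a_at was called higher there in 5 of 19, 1415929_at in 3 of 20 and 1428024_at in 1 of 20. The lower Map1lc3b value in homozygous blood therefore rests on 1 of 4 probe sets; the mean of all 4 differed by -0.01 (limma adjusted p = 0.874).

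**Figure D3:**
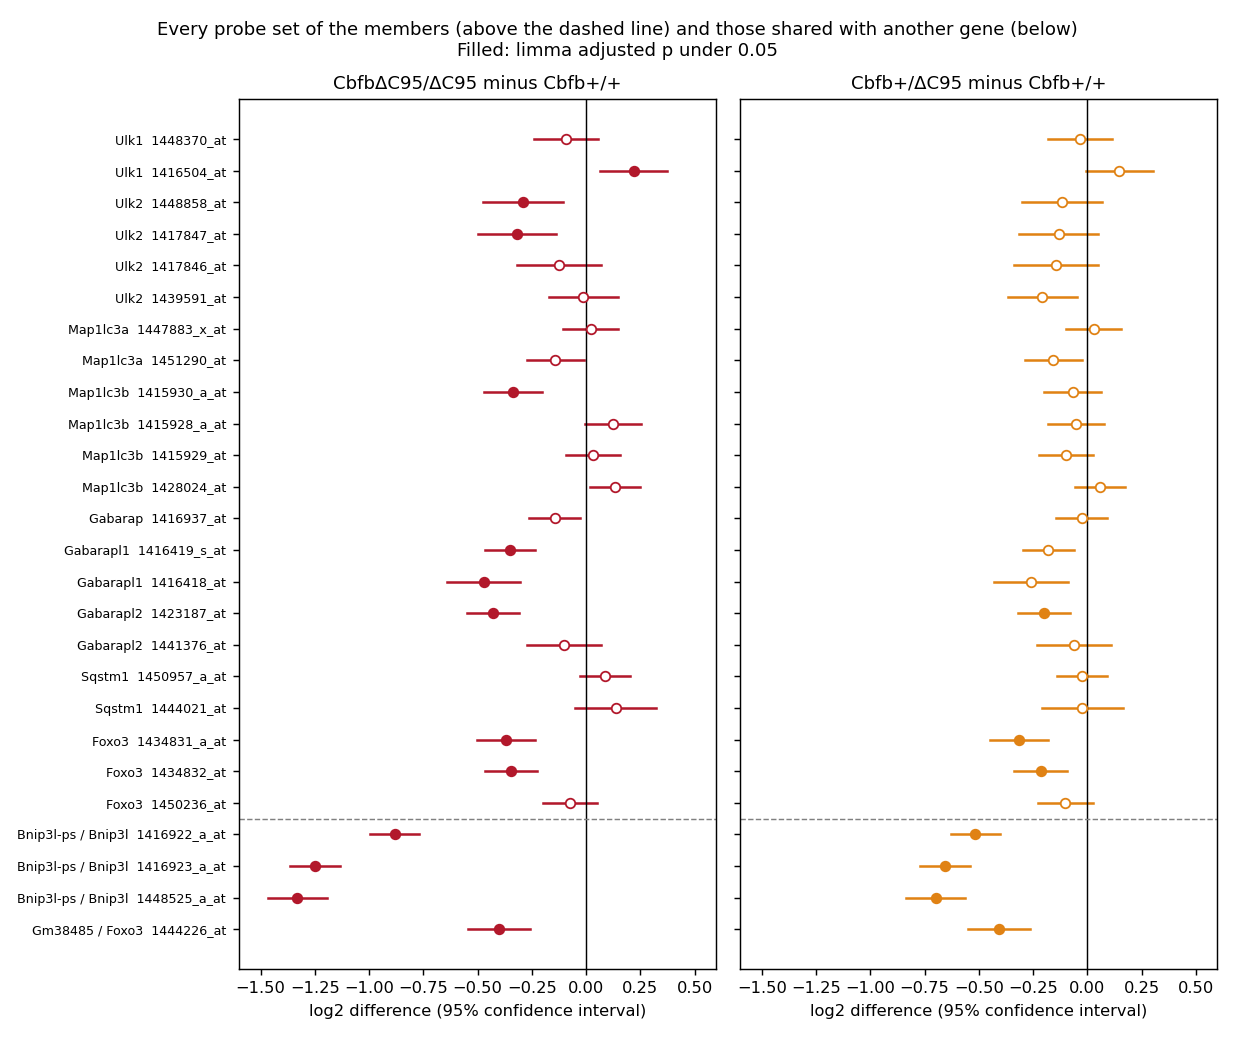
Log2 difference of each of the 22 probe sets, and of the 4 shared with another gene below the dashed line, for homozygous minus wild type (left) and heterozygous minus wild type (right), with 95% confidence intervals; filled points have a limma adjusted p under 0.05. Of the 22, 9 are filled on the left and 3 on the right, and the shared Bnip3l sets stand furthest from 0.

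Gabarap, the founding member of its branch, did not reach the threshold. Its 1 probe set read 11.78, 11.73 and 11.69 in homozygous, 11.85, 11.86 and 11.85 in heterozygous and 11.90, 11.89 and 11.85 in wild-type arrays. Every homozygous array lay below every other, and the difference from wild type was -0.14, with a 95% interval of -0.26 to -0.03 (limma adjusted p = 0.0845). It was called when the 40% dimmest probe sets were left out (0.0461) and when the variance prior followed intensity (0.000437). For heterozygous minus wild type it was -0.03.

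Map1lc3a, which encodes LC3A, had no probe set called in either mutant genotype. The set 1447883_x_at read 9.36, 9.24 and 9.36 in homozygous, 9.30, 9.33 and 9.35 in heterozygous and 9.25, 9.32 and 9.33 in wild-type arrays. Its homozygous difference of 0.02 had a 95% interval of -0.11 to 0.15. The set 1451290_at read 7.08, 7.00 and 6.97 in homozygous, 7.00, 7.03 and 6.98 in heterozygous and 7.16, 7.09 and 7.23 in wild-type arrays. All mutant arrays lay below the wild-type ones, by -0.14 in homozygous and -0.16 in heterozygous blood, and neither was called (limma adjusted p = 0.127 and 0.161).

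Of the kinases that begin autophagy, Ulk2 was lower in homozygous blood: 1448858_at read 5.40, 5.64 and 5.75 in homozygous, 5.82, 5.75 and 5.75 in heterozygous and 5.89, 5.80 and 5.97 in wild-type arrays. The homozygous arrays were the most spread and lay below all wild-type arrays. Homozygous minus wild type was -0.29 ± 0.08 (1.22-fold lower, limma adjusted p = 0.0289), and the call was lost without homozygous array 1 (-0.19) or wild-type array 1 (-0.29) or 3 (-0.25), with an adjusted p of up to 0.111. It was lost as well after quantile normalization (0.0532), with reference genes (0.0824) and when only these 2 genotypes were fitted (0.0634).

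A dim second Ulk2 set, 1417847_at, read 2.99, 3.08 and 3.07 in homozygous, 3.19, 3.26 and 3.25 in heterozygous and 3.15, 3.49 and 3.46 in wild-type arrays. Homozygous minus wild type was -0.32 (limma adjusted p = 0.0164), a call lost without homozygous array 1 or wild-type array 2 or 3 (up to 0.0785). The other 2 sets of Ulk2 gave -0.13 and -0.01 for homozygous minus wild type and were not called. Heterozygous blood passed the test at none of the 4, by limma at an adjusted p under 0.05.

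Ulk1, whose loss in mice is known to delay clearance of mitochondria from reticulocytes, had 1 probe set called higher. That set, 1416504_at, read 6.35, 6.32 and 6.31 in homozygous, 6.23, 6.18 and 6.36 in heterozygous and 6.09, 6.01 and 6.23 in wild-type arrays. All homozygous arrays lay above the wild-type ones, by 0.22 ± 0.07 (limma adjusted p = 0.0466). The call was lost when any homozygous array, heterozygous array 1 or 2, or wild-type array 1 or 2 was left out (adjusted p up to 0.179), and after cyclic loess or scaling to array medians. The brighter set, 1448370_at, read 7.21, 7.04 and 7.21 in homozygous, 7.22, 7.13 and 7.28 in heterozygous and 7.30, 7.21 and 7.22 in wild-type arrays, where all 3 genotypes overlapped (-0.09, limma adjusted p = 0.393).

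Sqstm1 encodes p62, a receptor that ties ubiquitin-bearing cargo to Atg8 proteins and is itself degraded by autophagy. Probe set 1450957_a_at read 10.26, 10.25 and 10.18 in homozygous, 10.12, 10.10 and 10.14 in heterozygous and 10.14, 10.15 and 10.15 in wild-type arrays. The homozygous arrays were the highest, but the difference of 0.09 ± 0.05 from wild type was not called (limma adjusted p = 0.295), nor was the heterozygous one of -0.02. Its second set gave 0.14 in homozygous blood and was not called.

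As a description over the 9 arrays, which share their genotype steps, Gabarapl1 and Gabarapl2 followed each other at r = 0.99 and Map1lc3b and Gabarap at r = 0.95, by brightest probe sets. Gabarapl2 had the largest F statistic over the genotypes among the 9 genes, at 31.2. Among 16303 candidate genes, those most like it were Asb1 and Stag2 (r = 0.999 each), then Snx4, Tcea1 and Wapl (0.998 each), and 778 genes exceeded r = 0.95. Those most like Foxo3 were Eloc (0.991), Vti1b (0.990), Ddx50 and Col4a1 (0.989 each) and Rabac1 (0.987), and 152 genes exceeded r = 0.95. No likeness was computed for Bnip3l, which had no probe set of its own.

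Other genes of the pathway were counted in 5 lists, 1 probe set per gene, with 116 genes measured. In homozygous against wild-type blood 41 were lower and 12 higher by limma, beside 25.6% of all genes called. In heterozygous against wild-type blood 30 were lower and 1 higher, where 11.8% of all genes were called, 4.79% higher and 7.04% lower. Between homozygous and heterozygous blood 25 were lower and 5 higher, where 15.8% of all genes were called, 5.38% higher and 10.4% lower. After scaling to reference genes 19 were lower and 49 higher, where 2356 of all 45037 probe sets were lower and 19494 higher. The lists had been drawn up with earlier results of these data known, so the counts are descriptions. No called gene had another probe set called the other way in the same comparison. Many had one that was not called: of the 19 called genes named for homozygous against wild-type blood, 15 had a further probe set and 9 a further one not called. For heterozygous against wild-type blood these were 18, 15 and 12, and for homozygous against heterozygous blood 19, 14 and 12.

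Of 40 other autophagy genes, 11 were lower and 6 higher in homozygous blood, where 25.6% of all genes were called, 10.7% higher and 14.9% lower. The median difference was 0.03 beside 0.05 for all genes. Atg4a, a protease that trims Atg8 proteins, read 4.95, 5.00 and 4.89 in homozygous, 5.06, 5.06 and 4.88 in heterozygous and 6.02, 6.02 and 6.14 in wild-type arrays. Both mutant genotypes were lower, at -1.11 (limma adjusted p = 2.84e-07) in homozygous and -1.06 (6.42e-06) in heterozygous blood, but a second probe set gave 0.08 and was not called. Atg14, which directs the class III PI3-kinase to autophagosome formation, was lower, at -0.99 in homozygous and -0.47 in heterozygous blood. Rb1cc1, which encodes the ULK partner FIP200, was lower, at -0.79 in homozygous and -0.41 in heterozygous blood.

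Nrbf2, a further subunit of the PI3-kinase complex, was lower, at -0.78 in homozygous and -0.25 in heterozygous blood. Atg5, part of the enzyme that attaches Atg8 proteins to membranes, was lower, at -0.51 in both mutant genotypes. Of its 3 probe sets, 1415684_at gave -0.03 in heterozygous blood and was not called. Atg2a, a lipid transfer protein, was higher in homozygous blood, by 0.37 over wild type and 0.38 over heterozygous blood. In heterozygous against wild-type blood 9 of the 40 were lower and 0 higher by limma (11 lower and 2 higher at an unadjusted p under 0.05), where 11.8% of all genes were called, 4.79% higher and 7.04% lower. Between homozygous and heterozygous blood 5 were lower and 3 higher, where 15.8% of all genes were called, 5.38% higher and 10.4% lower.

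Of 17 other mitophagy and cargo receptor genes, 8 were lower and 1 higher in homozygous than in wild-type blood, with a median of -0.13, where 25.6% of all genes were called. The same numbers, 8 and 1, were called in heterozygous blood, where 11.8% of all genes were, and 6 lower and 0 higher between homozygous and heterozygous blood by limma (6 lower and 1 higher at an unadjusted p under 0.05), where 15.8% of all genes were. Tax1bp1, a receptor for ubiquitin-bearing cargo, read 7.98, 7.74 and 7.92 in homozygous, 8.62, 8.60 and 8.61 in heterozygous and 9.20, 9.23 and 9.25 in wild-type arrays. It stood in 3 separate steps, at -1.35 against wild type in homozygous (limma adjusted p = 5.11e-08) and -0.62 in heterozygous blood.

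Fundc1, a mitophagy receptor of the outer membrane, was lower, at -0.72 in homozygous and -0.41 in heterozygous blood. Tbk1, a kinase that acts on cargo receptors, was lower, at -0.70 in homozygous and -0.31 in heterozygous blood, and Nbr1, a receptor related to p62, at -0.63 in homozygous and -0.25 in heterozygous blood. Ncoa4, the receptor for ferritin, was lower, at -0.57 in homozygous and -0.35 in heterozygous blood. Phb2, a protein of the inner mitochondrial membrane, was higher, by 0.57 in homozygous and 0.49 in heterozygous blood.

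Of 25 regulators of autophagy, 5 were lower and 3 higher in homozygous blood, with a median of -0.01, where 25.6% of all genes were called. In heterozygous blood 3 were lower and 0 higher by limma (3 lower and 1 higher at an unadjusted p under 0.05), where 11.8% of all genes were. Sesn1, an inhibitor of mTORC1 signalling, read 7.64, 7.64 and 7.63 in homozygous, 8.37, 8.37 and 8.37 in heterozygous and 8.94, 8.84 and 8.89 in wild-type arrays, and was lower, at -1.25 (limma adjusted p = 2.07e-08) in homozygous and -0.53 in heterozygous blood. Foxo4, a relative of Foxo3, was lower, at -0.72 in homozygous and -0.41 in heterozygous blood, and Zkscan3, a repressor of autophagy genes in human cells, at -0.50 in homozygous and -0.43 in heterozygous blood. Another Zkscan3 probe set gave -0.21 in homozygous blood and was not called. The second Foxo4 probe set gave -0.02 in homozygous and -0.16 in heterozygous blood, neither called. Prkag2, a subunit of the energy sensor AMPK, was lower in homozygous than in heterozygous blood by its brightest probe set. That difference was -0.25 (limma adjusted p = 0.0304), a call lost in 7 of 21 alternatives. The same set gave -0.13 in homozygous and 0.13 in heterozygous blood against wild type, neither called. A dimmer Prkag2 set was called lower in homozygous blood, at -0.57 against wild type (limma adjusted p = 0.00013). Against heterozygous blood that dimmer set gave -0.47 (limma adjusted p = 0.00132), also called. The remaining Prkag2 sets gave -0.14 and 0.13 for homozygous minus wild type, neither called. Tsc2, an inhibitor of mTORC1, was higher in homozygous blood by 0.61. Foxo1 and Tfeb, a master regulator of lysosomal genes, gave 0.15 each in homozygous blood and were not called.

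Of 20 reported FOXO3 targets, 8 were lower, 1 higher and 11 not called in homozygous blood, where 25.6% of all genes were called. The median was -0.08. Some of the 20 are in the list of regulators or of mitophagy genes too, and Bnip3 and Pink1, given above, are among those not called. In heterozygous blood 7 were lower and 0 higher by limma (7 lower and 0 higher at an unadjusted p under 0.05), where 11.8% of all genes were. Cited2, a transcriptional co-regulator, read 9.07, 9.01 and 8.95 in homozygous, 9.84, 9.84 and 9.88 in heterozygous and 10.10, 10.18 and 10.12 in wild-type arrays. Its homozygous arrays stood below the rest, at -1.12 from wild type, against -0.28 in heterozygous blood. Irs2, an adaptor of the insulin receptor, was lower, at -0.36 in homozygous and -0.47 in heterozygous blood, and Gadd45a, a stress-response gene, at -1.68 in homozygous and -0.92 in heterozygous blood. Cdkn1b, which encodes the cell-cycle inhibitor p27, was lower, at -1.17 in homozygous and -0.47 in heterozygous blood, while its dim second probe set gave 0.02 in homozygous and 0.03 in heterozygous blood and was not called.

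Of 18 genes of the lysosomal membrane and its acidification, 10 were lower and 1 higher in homozygous blood, with a median of -0.19, where 25.6% of all genes were called. In heterozygous blood 4 were lower and 0 higher by limma (6 lower and 1 higher at an unadjusted p under 0.05), where 11.8% of all genes were. Lamp2, a membrane protein needed for fusion of autophagosomes with lysosomes, read 7.41, 7.24 and 7.34 in homozygous, 7.54, 7.56 and 7.50 in heterozygous and 7.96, 8.02 and 7.97 in wild-type arrays. Both mutant genotypes lay below wild type, at -0.65 in homozygous and -0.45 in heterozygous blood. The proton pump genes Atp6v1a and Atp6ap2 were lower, at -0.71 and -0.70 in homozygous blood, and gave -0.12 and -0.03 in heterozygous blood, neither called. Of further pump subunit genes, Atp6v1c1 was lower in homozygous blood, at -0.49 against wild type and -0.39 against heterozygous blood, and gave -0.10 in heterozygous blood, not called. Atp6v1d was lower at -0.26 in homozygous and -0.25 in heterozygous blood, Atp6v1e1 at -0.40 in homozygous and -0.23 in heterozygous blood, and Atp6v0b at -0.19 in homozygous and -0.21 in heterozygous blood. The heterozygous calls were lost in 5 of 21 alternatives for Atp6v1d, 9 of 21 for Atp6v1e1 and 8 of 20 for Atp6v0b. Npc2, which carries cholesterol inside lysosomes, was lower in homozygous blood, at -0.34 against wild type and -0.37 against heterozygous blood, and gave 0.03 in heterozygous blood, not called.

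**Figure D4:**
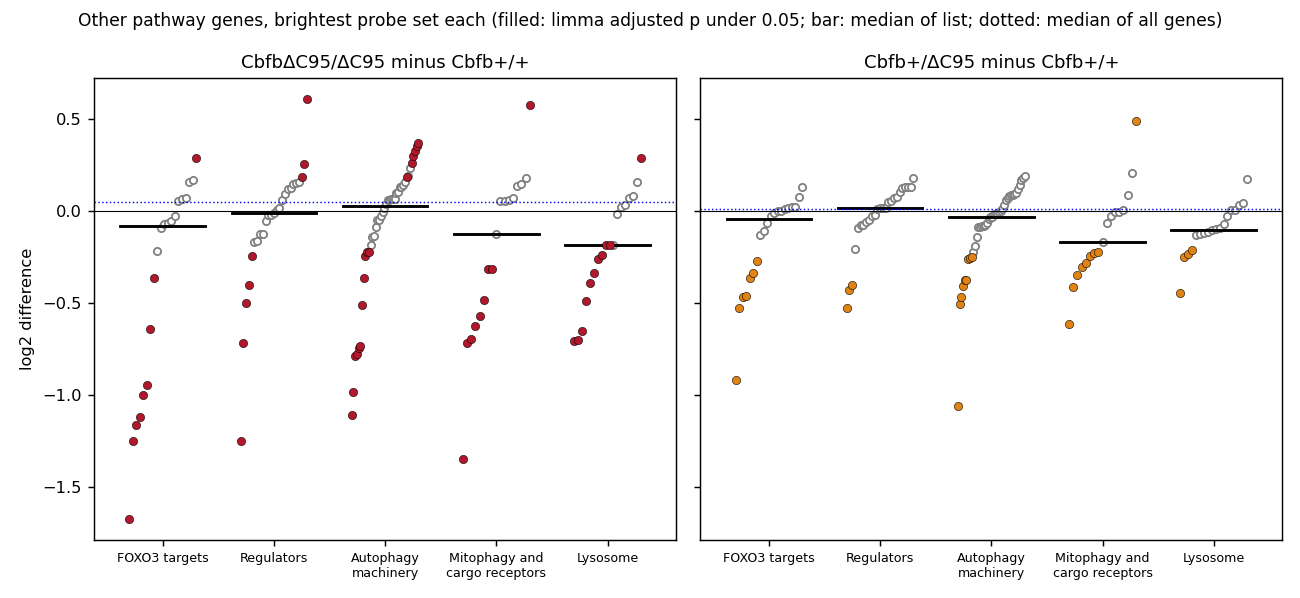
Log2 difference of each gene of the 5 other lists, by its brightest probe set, for homozygous minus wild type (left) and heterozygous minus wild type (right); filled points have a limma adjusted p under 0.05, bars are list medians and the dotted line is the median of all genes. On the left 41 genes are lower and 12 higher, counted once each, where 25.6% of all genes were called. On the right 30 are lower and 1 is higher, where 11.8% of all genes were called.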

How the data were processed

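Per the labels' protocols, pooled embryonic blood gave total RNA by RNA-STAT, and targets carried biotin from One Cycle labelling. Affymetrix Expression Console 1.0, RMA and Partek 6.5 appear in the submitters' processing notes, without their roles. The deposited values, made by the authors, were taken as log2 signal from their range (1.49 to 14.56) and from RMA being named. The scale is not stated, and RMA as a method equalizes arrays, which removes uniform differences between genotypes. Signal over background is not known here, so dim probe sets may hold little beyond background.

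The 64 control probe sets of 45101 were left out. GEO's platform annotation gave 1 gene to 34945 probe sets and several to 932, and 9160 were unnamed. A model of genotype over all 9 arrays was fitted in R 4.3.3 by limma 3.58.1 with moderated variances (lmFit, then contrasts.fit and eBayes), 2-sided, with Benjamini-Hochberg adjustment over 45037 probe sets and a threshold of 0.05. The probe set of highest mean signal stood for a gene. Tests used every array, with no filter. The fit was tested on simulated data.

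The members and lists were chosen with earlier results of these data known. Named were all members with every probe set, Cbfb, from each other list per comparison up to 4 called genes with the largest change and up to 2 uncalled ones, and the 5 genes most like Foxo3 and the member with the largest F statistic. Genes named for 1 comparison are often given with their values in another, but not always in every one. Of the listed genes, 6 are not used here. Alternatives covered the samples fitted, the replicate block, filters, the variance prior, array weights, 4 scalings, the choice of probe sets, a threshold of 0.01 and leaving out each array. Figures were drawn with matplotlib 3.10.9.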

Additional observations from a re-analysis of the deposited data

How the results depend on the processing

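Of 14 called differences of the members' probe sets, 6 stayed called with the same direction in every alternative that could be run on them, as did all 11 of the shared probe sets and 46 of 56 of the named genes of the other lists. The 9 calls among member probe sets for homozygous minus wild type became 5 without probe sets ending in _x_at, _s_at or _a_at (of 16), and 6 to 9 when 1 array was left out. The 3 calls for heterozygous minus wild type became 1 with the replicate number as a block, 1 after quantile normalization, 1 without those suffixes and 1 at a threshold of 0.01; they became 5 without the 40% dimmest probe sets, 5 with an intensity trend in the variance prior and 9 after scaling to reference genes, and 1 to 4 with 1 array left out. The 2 calls for homozygous minus heterozygous became 4 without the dimmest sets, 8 with the trend, 4 after quantile normalization, 4 after cyclic loess, 9 after scaling to reference genes, 1 without the suffixes and 0 at 0.01, and 1 to 3 with 1 array left out. The 0 calls for the heterozygous departure from the midpoint became 2 with the trend and 11 with reference genes, and stayed at 0 with any 1 array left out. The cause of these shifts was not tested, beyond the fewer probe sets or stricter limits that some alternatives contain. After scaling to reference genes, limma called 683 of all 45037 probe sets higher and 6604 lower for heterozygous minus wild type. For the departure from the midpoint it then called 719 higher and 15117 lower, so calls of lower values rose over all probe sets too. The share of all probe sets called with the intensity trend is not given here. Scaling to reference genes moved the median of all probe sets by -0.13 for heterozygous minus wild type, where the share of calls that were higher was 9.37% against 39.8%, and by 0.16 for homozygous minus heterozygous, where it was 89.2% against 34.4%; for the midpoint it was moved by -0.14, with 4.54% against 71.3%. Among the other pathway genes, 31 calls for heterozygous minus wild type became 48 with reference genes and 19 at 0.01 (19 to 31 with 1 array left out), 30 for homozygous minus heterozygous became 68 with reference genes (24 to 29), and 53 for homozygous minus wild type became 44 to 52 with 1 array left out. Map1lc3b turned direction without the suffixed sets, to 0.031 for homozygous minus wild type and 0.13 for homozygous minus heterozygous, and homozygous minus heterozygous came to 0.029 with the mean of its probe sets. The replicate numbers gave no clear sign of pairing: same-numbered arrays of different genotypes deviated together at r = -0.02 to 0.07 over 9 pairs, and others at -0.06 to 0.03. With 3 arrays a genotype, values this small cannot exclude a pairing. The block ended the calls of Gabarapl2 (limma adjusted p = 0.0774) and Foxo3 1434832_at (0.0584) in heterozygous blood and no other call of a named gene. With 3 arrays a group and signal over background not known here, small differences of dim probe sets are the least certain.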
